A study of Mus musculus with 6 samples.

Results

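The breakdown of the aromatic amino acids phenylalanine, tyrosine and tryptophan was followed through 9 genes in mouse kidney: Hpd, Hgd, Pcbd1, Qdpr, Kmo, Kynu, Haao, Afmid and Ddc. The genes were chosen by name as enzymes of these routes, out of 18193 genes on the array. This choice of genes uses none of their measured values, but it was made with earlier results of these data known. All 9 were measured, by 16 probe sets annotated to exactly 1 of them. A probe set is a group of short probes read together as 1 value. Each gene is given by its brightest probe set over the 6 arrays, and the 7 others are shown beside it. The series compares kidneys of Fh1 knockout mice, dissected from cystic epithelium (3 samples), with kidneys of wild-type littermates (3 samples), each sample on 1 Affymetrix array. Fh1 encodes fumarate hydratase, which turns fumarate into malate. The design text calls the controls sex-matched and free of disease. The sample titles name the tissue only as kidney in both groups, and dissection from cystic epithelium is described for the knockout kidneys. A difference in the tissue taken cannot be told apart from the genotype. The sources used here do not give how or in which cells Fh1 was deleted, nor the age or strain of the mice. Nothing in the labels ties each sample to its own animal, so the p-values speak only of how far these samples scatter, which may be technical.

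The liver and the proximal tubule of the kidney break down aromatic amino acids. Phenylalanine is first turned into tyrosine with the cofactor tetrahydrobiopterin, and tyrosine is then opened and cut into acetoacetate and fumarate, the substrate of the enzyme that Fh1 encodes. Tryptophan is taken through kynurenine towards the coenzyme NAD. A decarboxylase on a side branch makes dopamine and serotonin from the hydroxylated amino acids, and in the kidney the dopamine made this way acts on salt excretion.

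Values are robust multi-array average (RMA) values on the log2 scale, so a difference of 1 is 2-fold. Array medians were 6.24 to 6.25 in knockout and 6.20 to 6.23 in wild-type samples. Fh1 read 11.54, 11.60 and 11.61 in knockout samples, against 12.41, 12.34 and 12.22 in wild-type samples, and fell 1.67-fold (adjusted p = 0.000396 by limma). One array stood apart from its group in sex-linked genes. Xist, the RNA of the inactive X chromosome, read 7.97, 6.27 and 5.61 in knockout samples 1 to 3 and 6.38, 11.96 and 6.25 in wild-type samples 1 to 3. The Y-linked gene Eif2s3y read 9.54 to 9.59 in knockout samples, and 9.20, 6.20 and 8.70 in wild-type samples 1 to 3. Wild-type 2 thus held the highest Xist and the lowest Eif2s3y value of the 6 arrays, which goes against the description of the groups as sex-matched. Knockout 1 had the second highest Xist value. The part of sex in the results was not tested, and results that rest on wild-type 2 are given with and without it.

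All 9 genes were lower in the knockout. Under limma with p-values adjusted over all 18193 genes, 9 of 9 passed the threshold of 0.05 in the lower direction and 0 in the higher. Of all genes, 27.7% passed in the lower direction and 21.6% in the higher, 49.2% in all. When arrays were centred on the median gene, 6866 genes were lower and 3380 higher, against 5031 and 3928. Among genes with a mean signal not under the median gene's, 2334 were lower and 2944 higher. The median log2 fold change was -1.65 over the 9 genes and -0.11 over all genes. Values of the groups did not overlap for any of the 9, with each knockout value below each wild-type value, a pattern found in 37.1% of all genes, while the opposite one was found in 25.7%. Without wild-type 2 the 9 genes again all passed in the lower direction, with 26.4% of all genes doing so. Log2 fold changes without that array were -1.04 for Hgd, -0.65 for Pcbd1, -0.49 for Qdpr, -2.2 for Kmo, -2.29 for Afmid and -0.93 for Ddc, and those of Hpd, Kynu and Haao stand with each gene. By the brightest probe sets, the largest fall was in Hpd at 12.9-fold and the smallest in Qdpr at 1.44-fold. With each gene's probe sets averaged, Qdpr (log2 fold change -0.77) fell more than Pcbd1 (-0.71). The 4 enzymes of the kynurenine route fell 3.13-fold to 4.68-fold, and both enzymes of tetrahydrobiopterin recycling fell less, 1.44-fold and 1.64-fold. In bulk tissue, fewer cells of a type and less RNA per cell cannot be told apart.

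**Figure D1:**
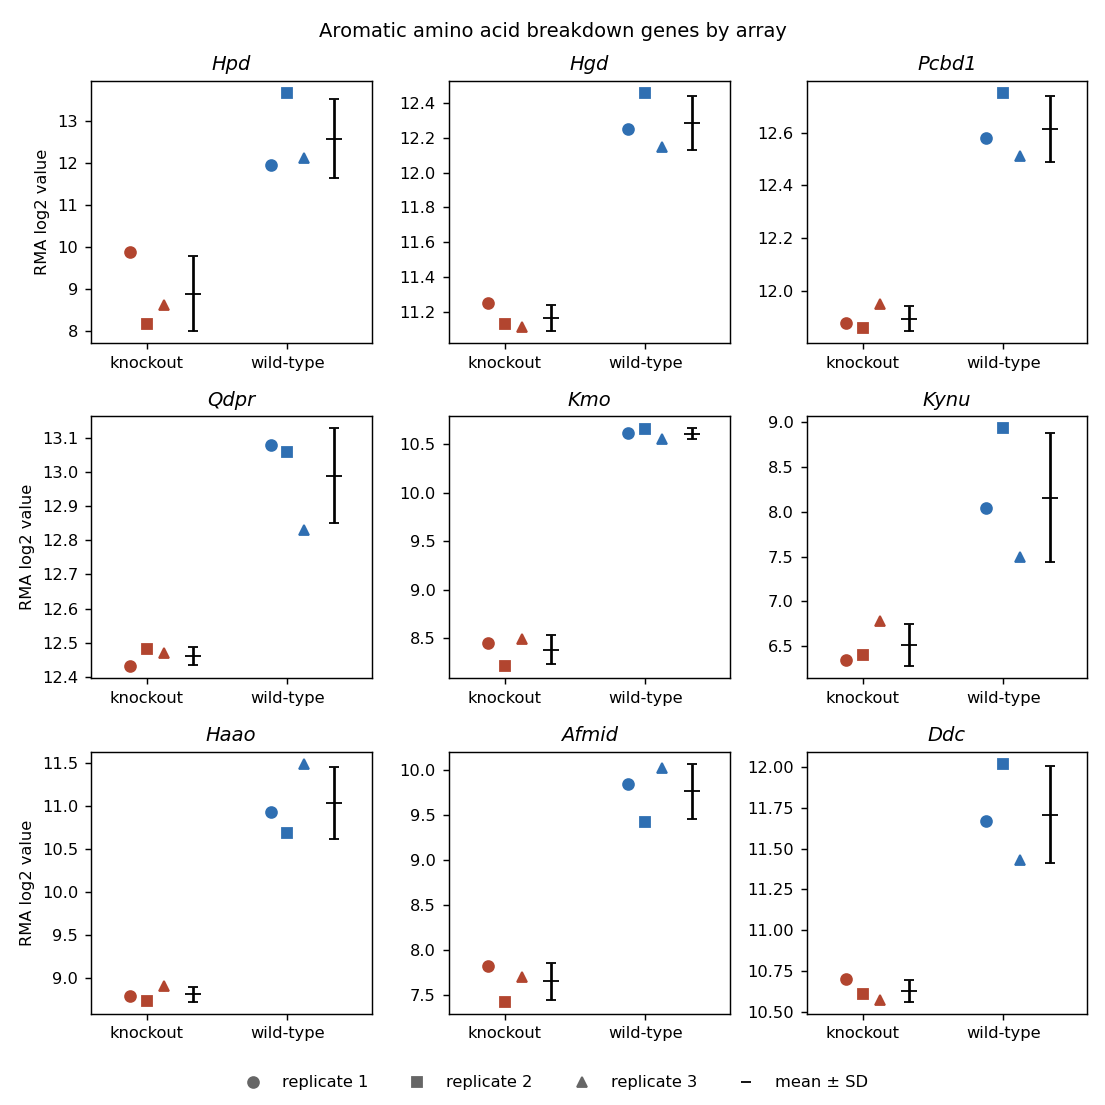
Values of the 9 genes in each array, as RMA log2 values, with knockout left and wild-type right. Circles, squares and triangles are replicates 1, 2 and 3, and the bar beside them is the mean ± SD (n = 3). In every panel the knockout points lie below the wild-type points. Wild-type 2 (square) is set off upwards for Hpd (13.67) and Kynu (8.93).

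The start regions of 4 of these genes are shown because 3 of them (Hpd, Kmo and Haao) had the largest falls and the 4th, Pcbd1, encodes a protein that also binds the transcription factor HNF1 as its dimerisation cofactor. The sequences are the 150 bases before the gene start, 5′ to 3′ on the gene's strand, from RefSeq on GRCm38.p6. Hpd lies on the minus strand at chr5:123182724-123182873, Kmo on the plus strand at chr1:175632043-175632192, Haao on the minus strand at chr17:83846791-83846940 and Pcbd1 on the plus strand at chr10:61089181-61089330. Capitals mark matches to the motifs named after them.
Hpd: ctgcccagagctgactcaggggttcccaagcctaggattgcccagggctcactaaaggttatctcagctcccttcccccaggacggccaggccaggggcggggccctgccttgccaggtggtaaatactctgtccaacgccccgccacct
Kmo: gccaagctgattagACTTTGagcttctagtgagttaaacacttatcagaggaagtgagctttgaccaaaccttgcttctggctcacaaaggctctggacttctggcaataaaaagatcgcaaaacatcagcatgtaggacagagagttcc
Haao: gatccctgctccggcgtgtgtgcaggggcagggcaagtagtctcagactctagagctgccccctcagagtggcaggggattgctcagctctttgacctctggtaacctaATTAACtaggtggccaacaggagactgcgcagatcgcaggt
Pcbd1: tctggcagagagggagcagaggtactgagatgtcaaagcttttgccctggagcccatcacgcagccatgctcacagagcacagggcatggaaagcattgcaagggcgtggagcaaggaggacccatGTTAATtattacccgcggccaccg
A set of 5 short motifs was searched on both strands of the 250 bases before the start. The table of start regions held 8 of the 9 genes, with 9 regions, since Ddc has 2 starts. The HNF1 core GTTAAT was found in the regions of Haao and Pcbd1 and in 6.43% of all 32851 regions. The HNF4 core CAAAGT was found in those of Kmo and Ddc and in 12.6% of all. The hypoxia response core ACGTG was found in Afmid alone and in 16.6% of all, and the antioxidant response core TGACNNNGC in none of the 9 regions and in 10.2% of all. TATAAA was found in Ddc, Hgd and Pcbd1, in the last outside the bases shown, and in 12.4% of all. No motif shares bases with another in these regions. The Hpd region held none of the 5 motifs. A match describes letters and says nothing about binding.

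Tyrosine breakdown. Hpd encodes 4-hydroxyphenylpyruvate dioxygenase, which makes homogentisate from the keto acid of tyrosine. Its 1 probe set (1424618_at) read 9.89, 8.17 and 8.62 in knockout samples 1 to 3, against 11.96, 13.67 and 12.11 in wild-type samples 1 to 3. Knockout 1 was the highest knockout sample and wild-type 2 the highest wild-type sample, and a gap of about 2 log2 units remained between the nearest values. The mean was 8.89 ± 0.89 in knockout and 12.58 ± 0.95 in wild-type samples (SD, n = 3 each), the widest spread of the 9 genes in both groups. Hpd fell 12.9-fold (log2 fold change -3.69, SE 0.55, limma adjusted p = 0.00143), and 6 of all genes had a lower log2 fold change. Without wild-type 2 it was -3.14 (SE 0.44, adjusted p = 0.00151), an 8.83-fold fall. Among the brighter genes (mean signal not under the median gene's), those whose values followed Hpd most closely over the 6 arrays were Dnajb2 (Pearson r = 0.996), Sel1l3 (0.993) and Eea1 (0.993). Over the 5 arrays without wild-type 2 these were 0.994, 0.988 and 0.992. The genes were picked by their r over arrays that include these 5, so the second values are no separate check. Their own changes were small, at log2 fold changes of -0.28, -0.35 and -0.26.

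Hgd encodes homogentisate dioxygenase, the enzyme after Hpd, which opens the aromatic ring. It read 11.25, 11.13 and 11.11 in knockout samples 1 to 3, against 12.25, 12.46 and 12.15 in wild-type samples 1 to 3. The samples of each group lay close together, and the groups were about 1 log2 unit apart. Hgd fell 2.18-fold (log2 fold change -1.13, SE 0.10, limma adjusted p = 0.000155). Its other probe set was dimmer and fell 1.34-fold (adjusted p = 0.0115 over all probe sets).

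Tetrahydrobiopterin recycling. Pcbd1 encodes pterin carbinolamine dehydratase, which begins the regeneration of the cofactor. It read 11.88, 11.86 and 11.95 in knockout samples 1 to 3, against 12.58, 12.75 and 12.51 in wild-type samples 1 to 3. The spread within the groups (SD 0.05 in knockout and 0.12 in wild-type samples) was well under the difference between them. Pcbd1 fell 1.64-fold (log2 fold change -0.71, SE 0.09, limma adjusted p = 0.000659). Qdpr encodes quinoid dihydropteridine reductase, which completes the regeneration. Its probe set with the highest signal read 12.43, 12.48 and 12.47 in knockout samples, against 13.08, 13.06 and 12.83 in wild-type samples 1 to 3. It fell 1.44-fold (log2 fold change -0.53, SE 0.09, adjusted p = 0.00312). This set (1437993_x_at) is of the type whose probes can also match other transcripts. The other Qdpr probe set (1423664_at) fell 2.02-fold (adjusted p = 0.000126 over all probe sets), so the size of the Qdpr fall depends on the probe set.

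Kynurenine route of tryptophan. Afmid encodes arylformamidase, which releases kynurenine. It read 7.82, 7.42 and 7.70 in knockout samples 1 to 3, against 9.85, 9.42 and 10.02 in wild-type samples 1 to 3. Replicate 2 was the lowest sample of each group, and the groups lay over 1.5 log2 units apart. Afmid fell 4.34-fold (log2 fold change -2.12, SE 0.17, limma adjusted p = 9.27e-05). As the mean of its 4 probe sets it fell 2.23-fold (adjusted p = 0.000137).

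Kmo encodes kynurenine 3-monooxygenase, the hydroxylase that directs kynurenine towards NAD. It read 8.45, 8.21 and 8.49 in knockout samples, against 10.61, 10.66 and 10.55 in wild-type samples. The 3 wild-type values lay within about 0.1 log2 unit of each other, the tightest wild-type group of the 9 genes (SD 0.06). Kmo fell 4.68-fold (log2 fold change -2.23, SE 0.10, adjusted p = 1.32e-05 by limma), the lowest adjusted p of the 9 genes.

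Kynu encodes kynureninase, which cleaves kynurenines to anthranilates. It was the dimmest of the 9 genes, at 6.35, 6.40 and 6.78 in knockout samples 1 to 3, against 8.04, 8.93 and 7.5 in wild-type samples 1 to 3. Wild-type samples were spread more (SD 0.72) than knockout samples (SD 0.23), with wild-type 2 the highest. Kynu fell 3.13-fold (log2 fold change -1.65, SE 0.32, adjusted p = 0.00506 by limma). Without wild-type 2 it fell 2.40-fold (log2 fold change -1.26, adjusted p = 0.00218), and as the mean of its 2 probe sets 1.88-fold (adjusted p = 0.00694). The second probe set lay under the lower quartile of every array and did not pass (log2 fold change -0.17, adjusted p = 0.152 over all probe sets).

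Haao encodes the dioxygenase that opens the ring of 3-hydroxyanthranilate on the way to quinolinate, a precursor of NAD. It read 8.79, 8.73 and 8.90 in knockout samples 1 to 3, against 10.93, 10.68 and 11.49 in wild-type samples 1 to 3. Wild-type 2 was the lowest wild-type sample here, as it was for Afmid. Haao fell 4.67-fold (log2 fold change -2.22, SE 0.19, limma adjusted p = 0.000121), and without wild-type 2 it fell 5.28-fold.

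Aromatic amine synthesis. Ddc encodes aromatic L-amino acid decarboxylase, which makes dopamine from DOPA in the proximal tubule. It read 10.70, 10.61 and 10.57 in knockout samples 1 to 3, against 11.67, 12.02 and 11.43 in wild-type samples 1 to 3. Knockout samples were within about 0.1 log2 unit of each other, and wild-type 2 was the highest sample. Ddc fell 2.12-fold (log2 fold change -1.08, SE 0.15, limma adjusted p = 0.000925). Its dim second probe set fell 1.34-fold (adjusted p = 0.0241 over all probe sets).

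Of the 7 further probe sets of these genes, 5 passed in the lower direction, 0 in the higher and 2 did not pass. Over all 45037 probe sets that are not controls, 23.4% passed in the lower direction and 20.6% in the higher. Afmid had 4 probe sets, with log2 fold changes of -2.12, -1.63 and -0.61 in the 3 that passed (1452944_at, 1428885_at and 1431722_a_at), while the dimmest (1447638_at) had a log2 fold change of -0.26 with adjusted p = 0.0544. In RMA values the differences of dim probe sets are compressed, and the file carries no detection call.

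**Figure D2:**
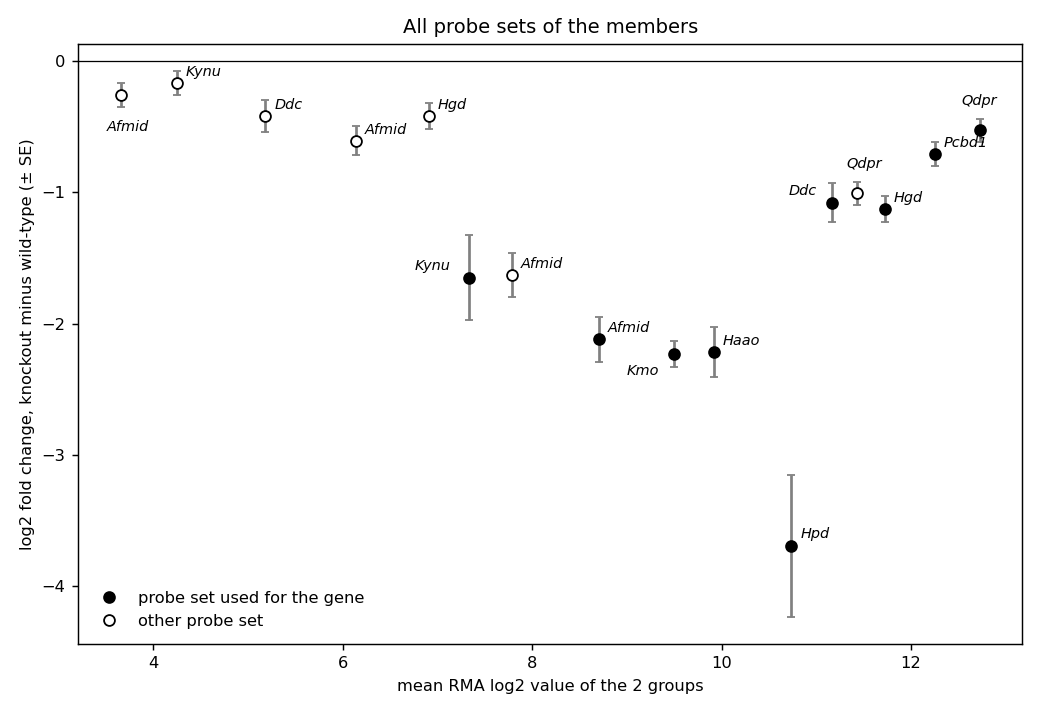
All 16 probe sets of the 9 genes, with the mean of the group means as RMA log2 value on the x axis and the log2 fold change ± SE on the y axis. Filled points are the probe sets used for the gene and open points the others. All points lie below 0, and the open points at the left, for Afmid and Kynu, are the 2 that did not pass.

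Wild-type arrays differed more among themselves than knockout arrays, over all genes and in several of these genes. Of the 9 genes, 6 had their highest wild-type value in wild-type 2, and 6 had their lowest in wild-type 3. Against the mean of the other wild-type samples, wild-type 2 was higher by 1.64 for Hpd, 1.16 for Kynu and 0.47 for Ddc, and it stood at -0.53 for Haao and -0.52 for Afmid on the log2 scale. The median absolute deviation of this kind over the 9 genes was 0.474 for wild-type 2 and 0.384 for wild-type 3, against 0.132 and 0.159 over all genes. Wild-type 1 stood at 0.132 over the 9 genes and 0.127 over all genes. In the knockout arrays it was 0.0845 to 0.114 over the 9 genes and 0.0836 to 0.0895 over all genes.

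**Figure D3:**
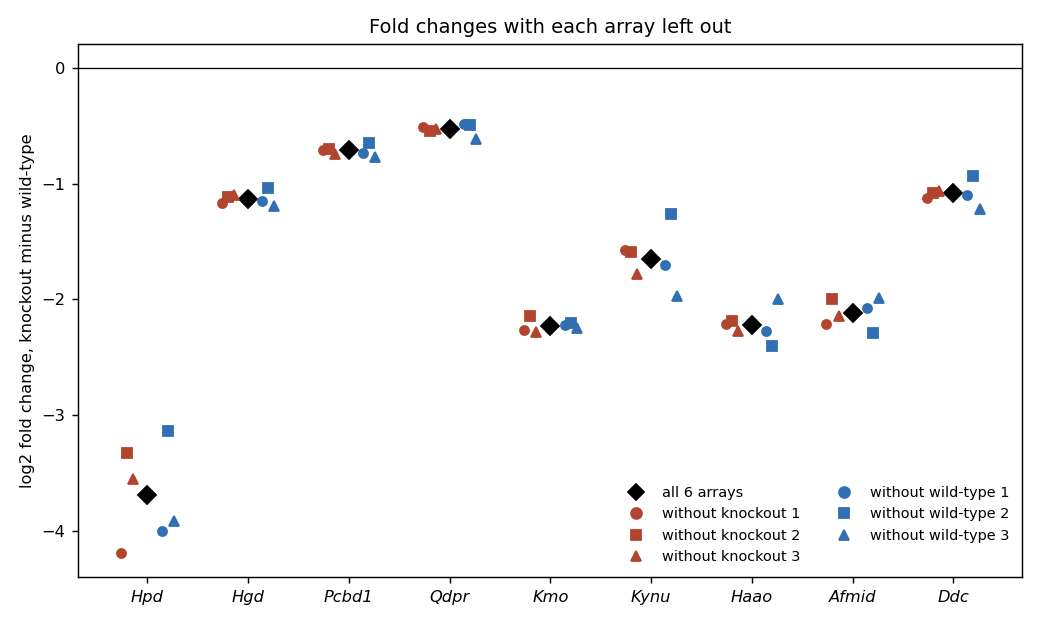
Log2 fold changes of the 9 genes (y axis) with all 6 arrays (diamonds) and with each array left out in turn (red without a knockout array, blue without a wild-type array, symbols by replicate). All values stay below 0. Hpd moves most, between -4.19 and -3.14, and Kynu between -1.97 and -1.26.

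The surrounding pathway was read through 40 listed genes, of which 34 were measured and 6 were not analysed here. Of the 34, 22 were lower, 5 were higher and 7 did not pass, against 27.7% lower and 21.6% higher among all genes, and their median log2 fold change was -0.50. Without wild-type 2 the counts were 22 lower and 5 higher. The lists were drawn up with earlier results of these data known, so their counts describe the pathway and support nothing further.

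In phenylalanine and tyrosine breakdown all 6 measured genes passed in the lower direction. Gstz1, the isomerase after Hgd, read 9.75, 9.75 and 9.94 in knockout samples, against 11.43, 11.24 and 11.53 in wild-type samples, and fell 3.01-fold (limma adjusted p = 4.42e-05). Fah, the last enzyme, which releases fumarate, read 11.22, 11.16 and 11.25 in knockout samples, against 12.65, 12.48 and 12.80 in wild-type samples, and fell 2.70-fold (adjusted p = 5.26e-05 by limma). Every measured step from Hpd to Fah was thus lower. Got1, a transaminase that can act on tyrosine, fell 1.81-fold. Tat, the tyrosine transaminase of liver, was dim at 6.47 to 6.59 in knockout and 6.68 to 6.96 in wild-type samples. It had a log2 fold change of -0.29 (adjusted p = 0.0395 by limma), a call that ended without any 1 of 5 arrays: knockout 1 (adjusted p = 0.0946), knockout 2 (0.0733), knockout 3 (0.125), wild-type 2 (0.0778) or wild-type 3 (0.0818). The Tat call also ended with the replicate block (0.0805), array weights (0.06) and a trended robust prior (0.0512), and without knockout 1 and wild-type 2 together (0.153).

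In tetrahydrobiopterin synthesis 3 of 5 measured genes were lower and 1 was higher. Gch1, GTP cyclohydrolase, the first and rate-limiting enzyme of the cofactor's synthesis, went the other way from the recycling enzymes. It read 7.26, 7.26 and 7.33 in knockout samples, against 5.74, 5.76 and 5.63 in wild-type samples, and rose 2.98-fold (limma adjusted p = 2.1e-05), and its second probe set rose 2.21-fold. Gchfr, the feedback regulator of that enzyme, read 8.32, 8.43 and 8.33 in knockout samples, against 9.34, 9.21 and 9.77 in wild-type samples, and fell 2.11-fold (adjusted p = 0.000846 by limma). The later enzymes Pts and Spr fell 1.36-fold and 1.6-fold. The Pts call ended with knockout 1 and wild-type 2 left out together (limma adjusted p = 0.076). Its second probe set did not pass (log2 fold change -0.22, adjusted p = 0.0632 over all probe sets). Pcbd2, the paralogue of Pcbd1, had a log2 fold change of -0.22 that did not pass (adjusted p = 0.0786). Pcbd2 was called lower when wild-type 3 was left out (adjusted p = 0.0172), when arrays were centred on the median gene (0.0257), after quantile normalisation (0.0432) and with array weights (0.0293).

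In the tryptophan, kynurenine and NAD list 6 of 9 measured genes were lower and 0 higher. The entry enzymes were dim: Tdo2 had means of 4.32 in knockout and 4.41 in wild-type samples (adjusted p = 0.519 by limma), and Ido1 had 4.77 and 5.21 (adjusted p = 0.0651, against 0.0443 without wild-type 2). Ido2 was also dim, at 4.31 and 4.76, and passed in the lower direction (limma adjusted p = 0.00627). Its call ended with knockout 1 and wild-type 2 left out together (adjusted p = 0.0606). Aadat, a transaminase that turns kynurenine into kynurenate, read 11.13, 10.18 and 9.85 in knockout samples 1 to 3, against 12.03, 14 and 12.48 in wild-type samples 1 to 3. Like Hpd, it was highest in knockout 1 and in wild-type 2 within the groups. Aadat fell 5.48-fold (log2 fold change -2.45, SE 0.52, limma adjusted p = 0.00686), with a log2 fold change of -1.87 without wild-type 2 (adjusted p = 0.00516). Kyat3, another kynurenine transaminase, fell 3.25-fold and had a log2 fold change of -1.20 without wild-type 2, against -1.70 with it. Kyat1, also a kynurenine transaminase, read 8.65 in wild-type 2, within the knockout range of 8.61 to 8.73, and did not pass (log2 fold change -0.53, adjusted p = 0.0786 by limma), but passed without wild-type 2 (log2 fold change -0.80, adjusted p = 0.00222). Towards NAD, Qprt fell 1.43-fold and Nadsyn1 1.57-fold.

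Among genes of aromatic amines 2 of 6 measured genes were higher and 2 lower. Both monoamine oxidases, which break down dopamine and serotonin, moved opposite to Ddc. Maoa read 10.17, 10.14 and 10.03 in knockout samples, against 8.44, 8.56 and 7.78 in wild-type samples, and rose 3.61-fold (limma adjusted p = 0.000262). Its second probe set rose 3.07-fold. Maob read 7.84, 8.08 and 7.85 in knockout samples, against 7.03, 7.22 and 7.07 in wild-type samples, and rose 1.76-fold (adjusted p = 0.000582 by limma). Aldh2, which oxidises aldehydes, had a log2 fold change of -0.34 (limma adjusted p = 0.0227). It did not pass without knockout 1 (0.0584), knockout 2 (0.0745) or knockout 3 (0.0620), without knockout 1 and wild-type 2 together (0.0618) or after quantile normalisation (0.095). As the mean of its 5 probe sets it did not pass either (log2 fold change -0.15, adjusted p = 0.123). Of the 5, 1 passed in the higher direction (log2 fold change 0.52, adjusted p = 0.0299 over all probe sets). The other lower gene was Th, tyrosine hydroxylase, at 5.15 to 5.32 in knockout and 5.43 to 5.55 in wild-type samples (adjusted p = 0.0405). That call ended without knockout 1 (adjusted p = 0.140), knockout 2 (0.0509), knockout 3 (0.114), wild-type 1 (0.0598) or wild-type 2 (0.0960). It also ended with the replicate block (0.0765), with a trended robust prior (0.0526) and without knockout 1 and wild-type 2 together (0.265). After quantile normalisation the log2 fold change of Th was -0.09 (adjusted p = 0.389).

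Of 7 transport genes 4 were lower and 2 higher. Slc6a19, the carrier of neutral amino acids at the apical face of the proximal tubule, fell 7.29-fold, and its second probe set fell 10.8-fold. Slc7a8, a basolateral exchanger, read 7.41, 7.22 and 7.64 in knockout samples, against 9.18, 9.29 and 9.32 in wild-type samples, and fell 3.59-fold (limma adjusted p = 4.09e-05). Slc7a5, the related exchanger of growing cells, read 7.41, 7.08 and 7.14 in knockout samples, against 6.30, 6.28 and 6.78 in wild-type samples, and rose 1.69-fold (adjusted p = 0.00627 by limma). Slc36a4 was the other higher gene (log2 fold change 0.32, adjusted p = 0.0286), and its call ended without knockout 1 (adjusted p = 0.0891), knockout 2 (0.0669), knockout 3 (0.0786), wild-type 1 (0.0637) or wild-type 3 (0.0531) and with arrays centred on the median gene (0.0588). It also ended after quantile normalisation (0.0996) and with the replicate block (0.0597). Hnf4a, a transcription factor of proximal tubule and liver, read 12.35, 12.20 and 12.24 in knockout samples, against 12.91, 12.79 and 12.89 in wild-type samples. It fell 1.52-fold (limma adjusted p = 0.00104), with its 4 probe sets all lower.

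**Figure D4:**
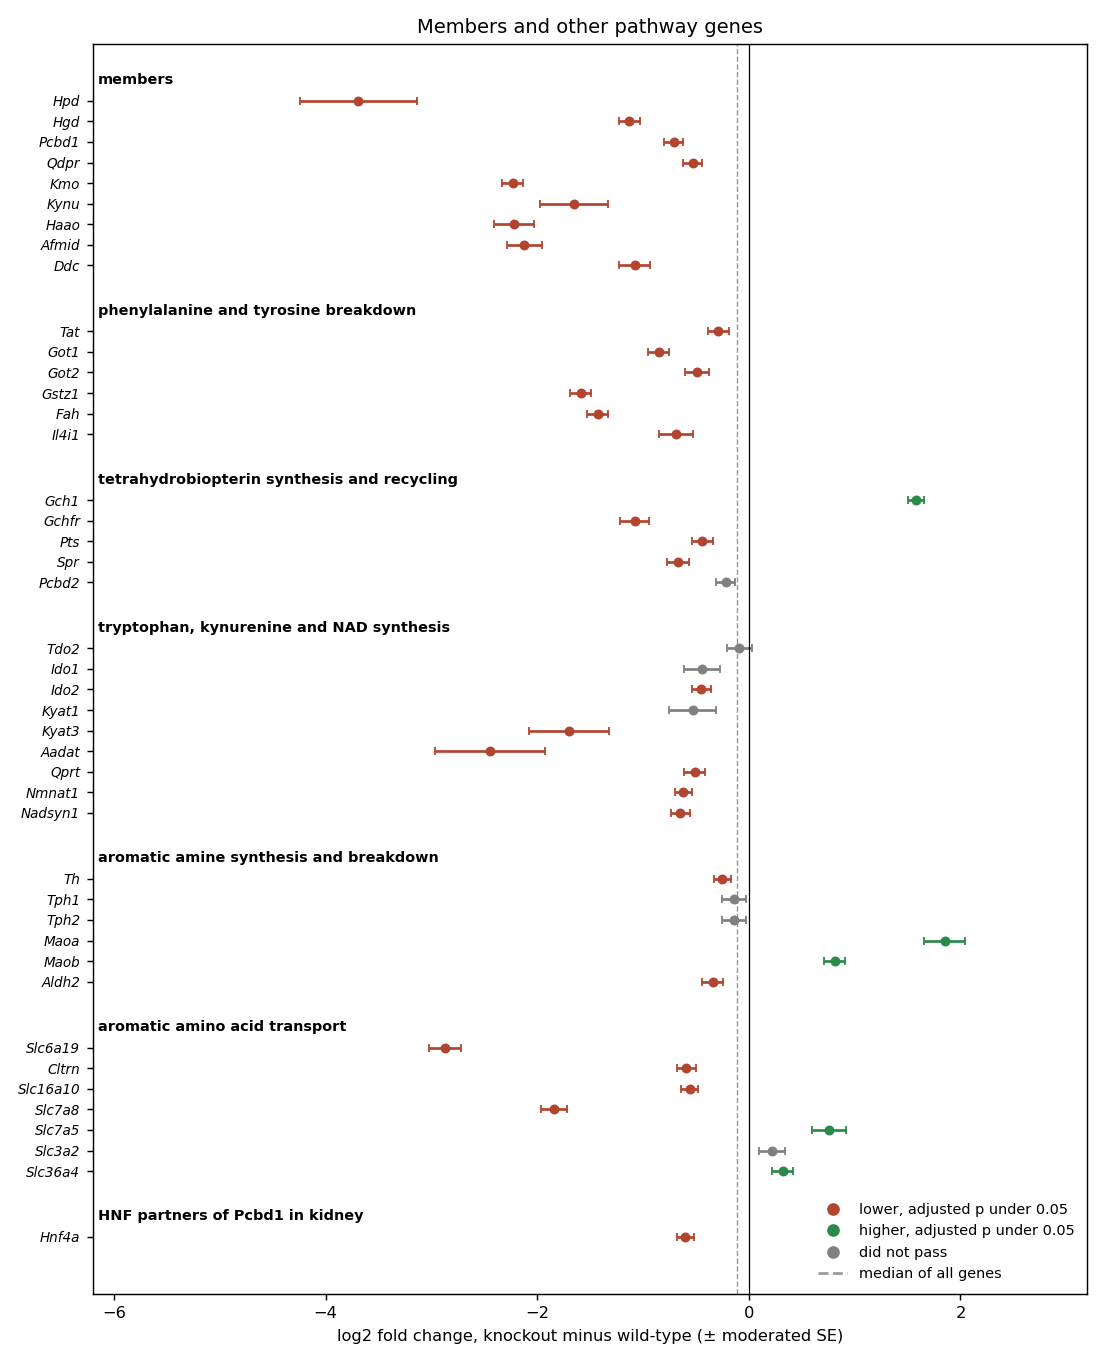
Log2 fold change ± moderated SE of the 9 genes (top block) and of 34 other genes by role, with knockout minus wild-type on the x axis. Red points are lower and green points higher at adjusted p under 0.05, and grey points did not pass. The dashed line is the median of all genes (-0.11). Gch1, Maoa, Maob, Slc7a5 and Slc36a4 are the 5 green points.

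Marker genes of kidney cell types moved in the same samples. Of 17 proximal tubule markers 15 were lower and 0 higher, with a median log2 fold change of -1.39, and their mean level per array was 11.35 to 11.55 in knockout and 12.76 to 12.98 in wild-type samples. Slc7a13 among them read 11.35 in wild-type 2, below all knockout samples, and passed without that array (log2 fold change -1.99, against -1.26 with it). Markers of other nephron segments and of vessels were lower as well. All 7 markers of the loop of Henle and distal tubule were lower (median log2 fold change -1.20), among them Egf at 12.2-fold and Pvalb at 12.5-fold. Of the collecting duct markers 4 of 7 were lower, of the endothelial 4 of 5 and of the podocyte 2 of 4, with 0 higher in each list. Of 12 immune cell markers 10 were higher and 0 lower, with array means of 9.47 to 9.77 in knockout and 7.99 to 8.23 in wild-type samples. Macrophages are also known to express Kmo and Kynu, both lower here. Of 10 fibroblast and matrix markers 8 were higher and 0 lower. The adrenal medulla also makes Ddc. Of 7 markers of adrenal medulla and cortex 3 were lower and 0 higher, with array means of 5.48 to 5.60 in knockout and 5.81 to 6 in wild-type samples. Of the medullary markers, Dbh was lower (log2 fold change -0.28, limma adjusted p = 0.0371), while Pnmt (0.283) and Chga (0.131) did not pass. The other lower ones, Cyp11b1 and Cyp11a1, are cortical and were dim. Of 6 hepatocyte markers 4 were lower and 0 higher, against 27.7% lower among all genes. Tat, one of the lower ones, and Tdo2 are also counted among the pathway genes. The part of cell composition in the falls was not tested.

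Set against the mean of the 17 proximal tubule markers in the same array, the 9 genes fell into different positions. This difference is a log2 ratio within an array and shows unequal change only. For Hpd it was -1.6, -3.18 and -2.94 in knockout samples 1 to 3, against -0.95, 0.91 and -0.86 in wild-type samples 1 to 3, with a difference between group means of -2.27 and no overlap. Without wild-type 2 that difference was -1.66, again with no overlap. Kmo, Haao and Afmid were also lower relative to the marker mean, with differences of -0.81, -0.81 and -0.70 and no overlap. The markers themselves had log2 fold changes from -0.04 (Aqp1) to -2.74 (Slc5a12). Those of Kmo (-2.23), Haao (-2.22) and Afmid (-2.12) lay within that range, and that of Hpd (-3.69) lay below it. Pcbd1 and Qdpr were higher relative to the marker mean, with differences of 0.70 and 0.89 and no overlap. The marker mean itself was 11.35 to 11.55 in knockout and 12.76 to 12.98 in wild-type samples. A gene with no change would therefore also stand higher relative to it. For Pcbd1 and Qdpr the positive differences mean only a smaller fall than that of the marker mean. The share of all genes without overlap on this measure was not counted, in either direction. For Hgd (0.29), Kynu (-0.23) and Ddc (0.33) the groups overlapped. Without wild-type 2 the differences were 0.44 for Hgd and 0.55 for Ddc, with each knockout value above both wild-type values, and 0.22 for Kynu, which turned its sign and still overlapped. For the other genes the groups remained apart in the same direction, at -0.72 for Kmo, -0.92 for Haao, -0.81 for Afmid, 0.83 for Pcbd1 and 0.99 for Qdpr. With 3 samples against 3 an exact permutation test of such a difference cannot go below 0.10, and none was run.

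**Figure D5:**
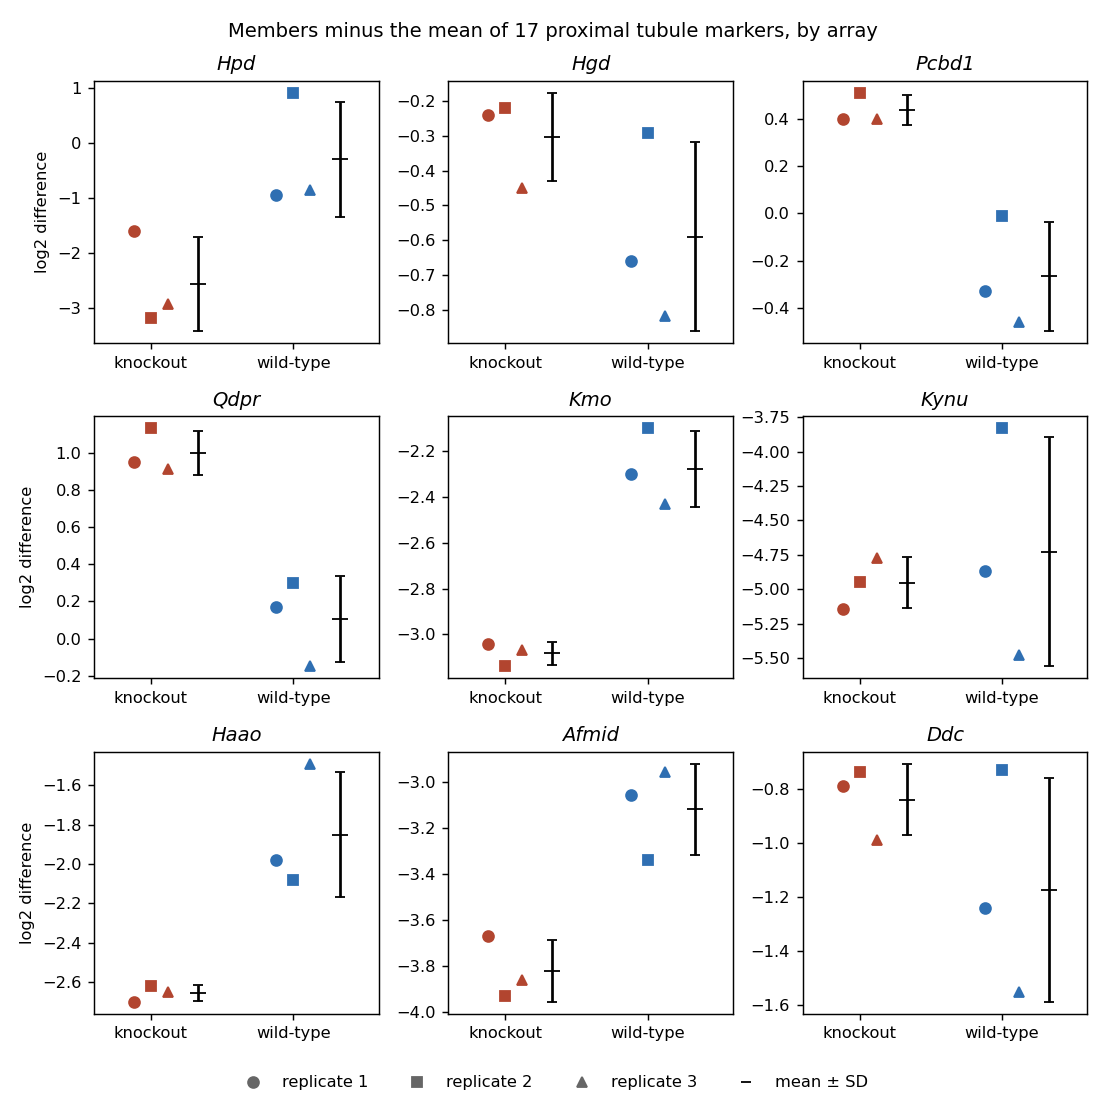
Each gene's RMA log2 value minus the mean of 17 proximal tubule markers in the same array (y axis), with knockout left and wild-type right, symbols by replicate, and mean ± SD beside them (n = 3). Knockout points lie below wild-type points for Hpd, Kmo, Haao and Afmid, above them for Pcbd1 and Qdpr, and among them for Hgd, Kynu and Ddc. For Hgd and Ddc the overlap rests on wild-type 2 (square).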

How the data were processed

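Kidney samples, 3 Fh1 knockout and 3 wild-type, were hybridised to Affymetrix arrays, and the groups were taken from the sample titles. The authors deposited 1 table of 45101 probe sets in RMA values on the log2 scale. RMA is named per the submitters' processing notes, the values' range (2.90 to 14.82) shows the log2 scale, and no source used here gives a version, chip definition or build. Scanner files were not analysed here, and the values' centring was kept. Of the probe sets, 34945 were annotated to 1 gene, 932 to several, 9160 to none, and 64 were controls. Symbols were updated through RefSeq's gene table (34741 matched), and each of 18193 genes was given by its brightest probe set.

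The comparison was a two-sided moderated test in limma 3.58.1 under R 4.3.3 (lmFit, eBayes), with Benjamini-Hochberg adjustment over all genes, or over 45037 probe sets where so stated, and a threshold of 0.05. The fit was tested on simulated data. The 9 genes, lists, probe set rule and named genes were chosen with earlier results of these data known. The rule named the 9 genes, the 3 called genes with the largest change in each list, a fixed set of pathway genes, and the 3 genes most correlated with Hpd. Th, Slc36a4, Pcbd2, Slc7a13, Egf, Pvalb, Xist, Eif2s3y and the named adrenal markers were added after their values were seen. Alternatives were other probe set rules, a signal filter, priors, centring, quantile normalisation, a replicate block, array weights, leaving out each array, and a threshold of 0.01. Leaving out knockout 1 with wild-type 2, and the marker-relative values and correlations without wild-type 2, were added after seeing the data. Array number, 3 per group, limits the precision. Python 3.11.15 and matplotlib 3.10.9 drew the plots.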

Additional observations from a re-analysis of the deposited data

How the results depend on the processing

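The falls of the 9 genes kept their direction and passed the threshold in 143 of 143 values under the alternatives, with a highest adjusted p of 0.0338 by limma. These are not separate checks, since they share the same arrays and some keep the main log2 fold change. As the groups did not overlap, leaving out an array could not turn the direction. Kynu lies under the median signal and could not be tested among the brighter genes. The count of the 9 genes was 8 lower among those brighter genes and 9 lower in every other setting run, with 0 higher in each.

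The counts over all genes moved more. Genes lower in the knockout numbered 5031, against 2334 among the brighter genes alone, 2371 at a threshold of 0.01, 3010 without knockout 1 and wild-type 2 together, and 3160 to 4810 with each array left out, with 3160 without knockout 1 and 3279 without knockout 3. Over all probe sets 10529 were lower and 9271 higher, since more features were tested, against 3928 genes higher. Lower genes made up 56.2% of the calls and 67.0% when arrays were centred on the median gene, which put the median change at -0.19, against -0.11 on the log2 scale. In some settings the higher calls were the more numerous. They numbered 2944 higher against 2334 lower among the brighter genes, and 2640 against 2371 at a threshold of 0.01. Without knockout 1 and wild-type 2 together they numbered 3092 against 3010. Among the brighter genes 3 other pathway genes were higher, against 5, since fewer were tested.

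Samples of the same number did not deviate together (correlations of deviations -0.10, -0.13 and -0.13). No knockout sample correlated best with the wild-type sample of its own number. With 3 samples per group, each centred on its own mean, this cannot exclude a pairing. With the replicate block 3930 genes were lower and 3510 higher, all 9 genes stayed lower, and Hpd kept its log2 fold change of -3.69 (adjusted p = 0.00446). Other pathway genes then numbered 21 lower and 4 higher. Small changes of dim genes are limited by the signal over background.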
